A study of Mus musculus with 6 samples.

Results

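DNA methylation writers and erasers were examined in mouse hematopoietic stem cells with and without a Cre that deletes floxed Rbfox2. The set was 8 genes of the 22969 Ensembl identifiers in the count table, taken by symbol: the methyltransferases Dnmt1, Dnmt3a and Dnmt3b, the dioxygenases Tet1, Tet2 and Tet3, the cofactor Uhrf1 and the glycosylase Tdg. All 8 were present, and all 8 passed the filter on low counts that left 12350 genes for testing. About 500 adult bone marrow cells per library were sorted as LSKCD150+CD48- (LSK being lineage-negative, Sca-1-positive and c-Kit-positive) and prepared by Smart-seq2, which copies whole polyadenylated transcripts without molecular identifiers. All 6 mice were C57BL/6 and Rbfox2-fl/fl. The 3 controls carried no Cre, and the 3 others were Vav1-cre; Rbfox2-fl/fl. Vav1-cre acts across the blood system, and since no mouse had the Cre without the floxed alleles, an effect of Cre and an effect of the deletion cannot be told apart.

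DNA methylation at CpG dinucleotides is set by DNMT3A and DNMT3B, which methylate unmethylated sites, and is copied after replication by DNMT1, which UHRF1 brings to hemimethylated CpGs. TET enzymes oxidise 5-methylcytosine, and TDG cuts out the oxidised bases so that base excision repair can restore cytosine. In blood, loss of Dnmt3a or Tet2 is known to let stem cells expand, and both genes are recurrently mutated in clonal hematopoiesis.

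Controls 1 and 3 differed far less from each other (chi-square per degree of freedom 3.44) than any other pair (at least 156), and their reads were summed into 1 sample, giving n = 2 against n = 3. Rbfox2 itself had 238, 11 and 250 counts in controls 1, 2 and 3 and 2, 87 and 10 counts in the libraries labelled deleted, so that control 2 and the second library of the deleted group went against their labels. The libraries of the deleted group are therefore called deleted-labelled 1, 2 and 3. Which exon is floxed was not known here, so a count over all exons checks the deletion only in part. Totals ran from 23474895 to 35650284 counts in the deleted-labelled libraries and from 47895459 to 55151484 in the controls, and deleted-labelled 1 was the shallowest, with 14154 genes detected against at least 15950 elsewhere. Of 2129 genes that both control samples held between 5 and 20 CPM (counts scaled to a library total of 1000000), 34.1% were under 0.5 CPM in deleted-labelled 1, 4.23% in deleted-labelled 2 and 2.72% in deleted-labelled 3. Xist marked deleted-labelled 1 and 3 as female and the other libraries as male. No control was female, so a fit with sex as a covariate compares only deleted-labelled 2 with the controls. Of the genes of the sort, Kit, Slamf1 (CD150) and Ly6a (Sca-1) were read in every library, and Cd48 had 0 counts in 5 libraries and 3 in deleted-labelled 3. Ly6a was at 632.5, 815 and 665 CPM in controls 1, 2 and 3 and 330, 336 and 423 CPM in deleted-labelled 1, 2 and 3. It did not pass the test described below (edgeR adjusted p = 0.387), and 17.2% of all genes tested were likewise lower without overlap. For Kit and Slamf1 the groups overlapped, with Slamf1 lowest in control 2 (9.95 CPM). In bulk RNA, fewer cells expressing a gene and less of its RNA per cell cannot be told apart.

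Promoters of 3 members are shown, chosen by the levels of these genes, and no link between sequence and level was tested. Dnmt1 and Uhrf1, the maintenance pair, were both highest in deleted-labelled 1, as were Dnmt3a, whose windows held no match to the motif searched, and 28.6% of all genes tested. Dnmt3b was the 1 member that was lower in every deleted-labelled library. The sequences are RefSeq windows of build GRCm38.p6 (mm10), from 250 bases before to 50 after the start of transcription, in the direction of the gene. In the first 2, capitals mark a letter match to an E2F site (TTTCCCGC, TTTGGCGC, TTTCGCGC or TTTGCCGC, either strand), and in the last, capitals mark CpG.
Dnmt1, chr9:20952574-20952873, minus strand: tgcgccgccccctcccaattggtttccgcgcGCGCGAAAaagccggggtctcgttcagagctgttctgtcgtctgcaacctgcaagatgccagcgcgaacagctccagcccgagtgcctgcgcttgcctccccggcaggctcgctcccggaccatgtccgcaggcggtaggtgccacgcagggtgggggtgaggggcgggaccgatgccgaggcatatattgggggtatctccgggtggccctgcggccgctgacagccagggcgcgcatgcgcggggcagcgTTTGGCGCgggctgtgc
Uhrf1, chr17:56304063-56304362, plus strand: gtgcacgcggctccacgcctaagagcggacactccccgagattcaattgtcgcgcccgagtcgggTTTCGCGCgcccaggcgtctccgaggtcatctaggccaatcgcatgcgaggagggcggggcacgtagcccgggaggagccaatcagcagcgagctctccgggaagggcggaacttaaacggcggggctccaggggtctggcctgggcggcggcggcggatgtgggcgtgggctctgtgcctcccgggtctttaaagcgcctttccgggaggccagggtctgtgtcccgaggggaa
Dnmt3b, chr2:153649199-153649498, plus strand: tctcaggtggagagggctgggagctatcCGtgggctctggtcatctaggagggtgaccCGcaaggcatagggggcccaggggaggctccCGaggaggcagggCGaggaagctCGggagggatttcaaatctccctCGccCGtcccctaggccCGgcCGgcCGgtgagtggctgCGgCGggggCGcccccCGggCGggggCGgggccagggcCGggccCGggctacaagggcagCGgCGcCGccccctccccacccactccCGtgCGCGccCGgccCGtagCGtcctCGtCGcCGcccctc
E2F proteins switch on genes of DNA replication. The Dnmt1 window held GCGCGAAA 219 bases upstream of the start and TTTGGCGC 33 bases downstream, and the Uhrf1 window held TTTCGCGC 185 bases upstream. Of the 13 annotated starts of the 8 genes, these 2 held a match, and the other starts of Dnmt1 and Uhrf1 had none. Of 32851 promoter windows of the same length, 2.26% held a match. The Dnmt3b window had 30 CpGs, where the median of all windows was 7. CpG content ranged from 2, at the outermost Dnmt1 start, to 57 at Tet2. A match in letters describes the window and shows no binding.

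Per unit of transcript length, Dnmt3a was the most abundant of the 8 in every library and Tet1 the least. Levels per length are counts per kilobase of the longest annotated transcript, scaled to a sum of 1000000 per library, a scale on which genes can be compared. Dnmt3a had a median of 24.6 over the 5 samples (16.9 to 58.3). Dnmt1 (median 7.78, range 6.08 to 15.6), Dnmt3b (6.46, 2.32 to 9.06) and Uhrf1 (5.42, 2.60 to 16.9) came next by median, with overlapping ranges, but in deleted-labelled 3 Uhrf1 (2.60) was below Tet2, Tdg and Tet3. Tet2 (2.42, 1.12 to 4.31), Tdg (1.57, 0.854 to 3.76), Tet3 (1.43, 0.0457 to 3.65) and Tet1 (0.862, 0.0397 to 2.52) had the lowest medians. Dnmt3a lay above Dnmt1 in 5 of 5 samples. Dnmt1 lay above Dnmt3b in 4 of 5 and Dnmt3b above Uhrf1 in 3 of 5, so these neighbours had no fixed order.

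**Figure D1:**
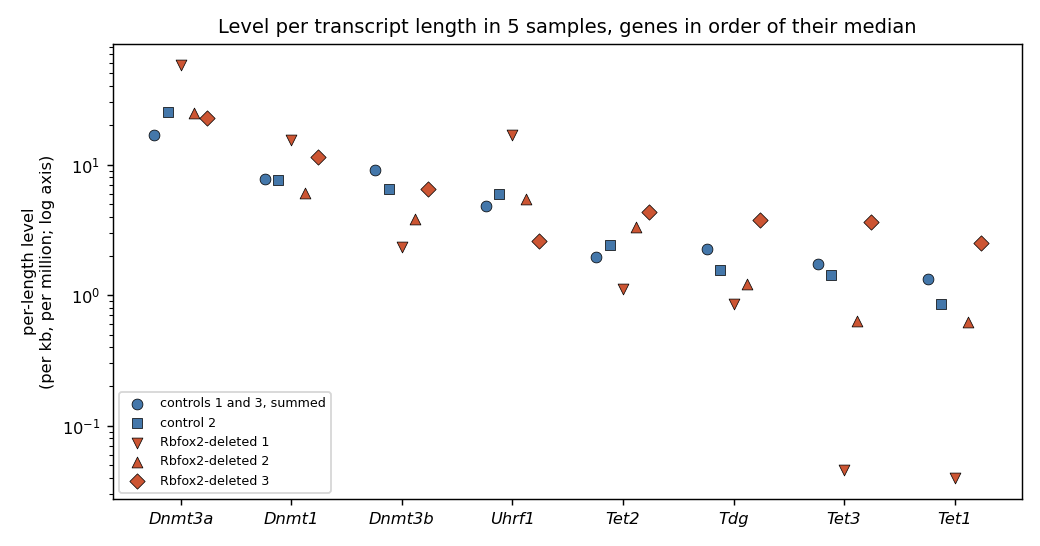
Level per transcript length (log axis) of the 8 genes in 5 samples, ordered by their median, with controls in blue and deleted-labelled samples in red. Dnmt3a is highest and Tet1 lowest in each sample, and the widest spread is that of Tet3 and Tet1, down to 0.0457 and 0.0397 in deleted-labelled 1.

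Whether any writer or eraser differed with the deletion was asked in 1 fit over all genes. No member passed edgeR's quasi-likelihood test (smallest Benjamini-Hochberg adjusted p = 0.791, for Dnmt3b), where 0.0% of the 12350 genes tested passed. None passed DESeq2 either, which called 1.47% of genes, and 0 of 8 members had an unadjusted edgeR p under 0.05, against 9.89% of all genes. Of all genes, 5.33% had such a p with a higher level and 4.56% with a lower one, a balance that depended on scaling, since upper quartile factors gave 339 higher and 1087 lower genes in place of 658 and 563. By fold change, 4 members lay above control and 4 below, where 53.5% of all genes lay above and 46.5% below, with a median of -0.13 on the log2 scale, against 0.11 over all genes tested. The 2 groups were fully separated for 1 of 8 members, against 32.0% of all genes. The biological coefficient of variation over all genes was 104%, so a difference in a member could be missed with these samples. The size of difference that could be detected for each member was not tested.

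**Figure D2:**
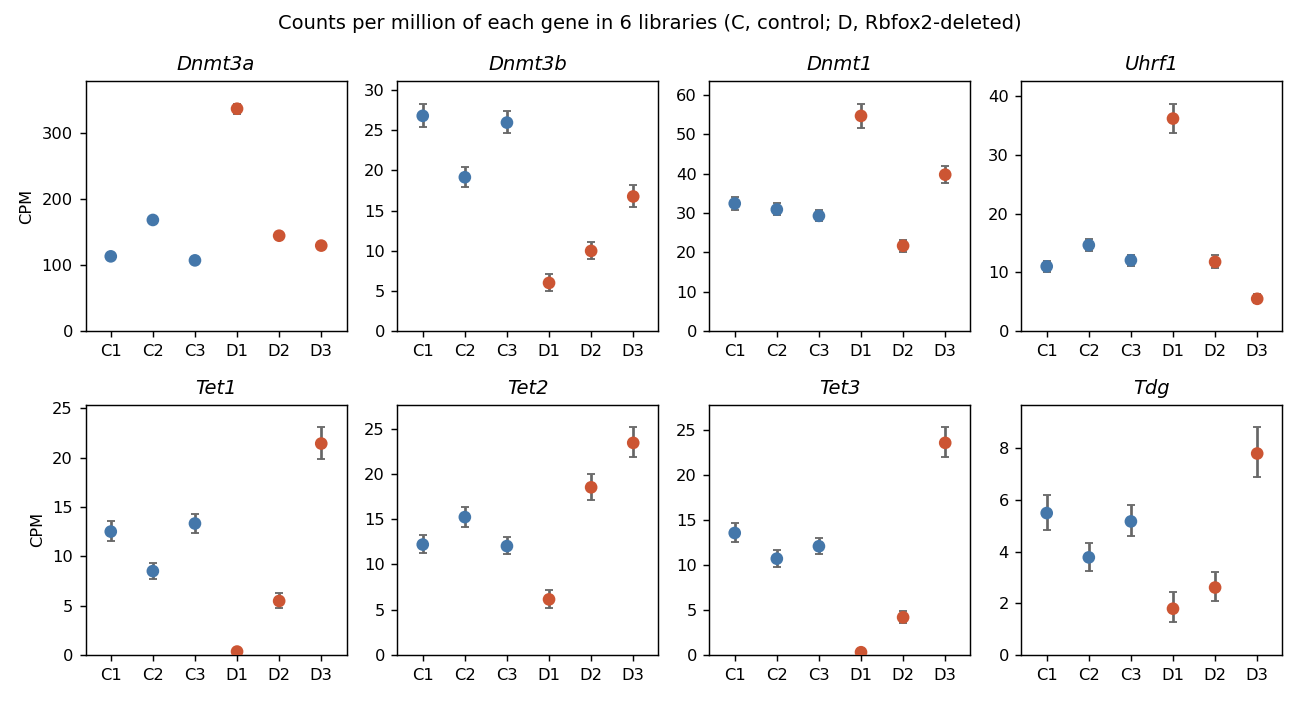
CPM of each gene in control (C, blue) and deleted-labelled (D, red) libraries, with 95% Poisson intervals that cover counting error only. Dnmt3b is lower in all 3 deleted-labelled libraries, and in the other panels the 2 groups overlap.

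Dnmt3b, one of the de novo enzymes, had 26.8, 19.2 and 25.95 CPM in controls 1, 2 and 3 and 6.01, 9.99 and 16.8 CPM in deleted-labelled 1, 2 and 3. Every deleted-labelled library was below every control, and the closest were deleted-labelled 3 and control 2, whose 95% Poisson intervals (15.4 to 18.2 and 18.0 to 20.4 CPM) overlapped. Control samples averaged 22.7 ± 5.08 CPM (SD, n = 2) and deleted-labelled libraries 10.9 ± 5.44 CPM (SD, n = 3). The log2 fold change, deleted-labelled minus control, was -1.19 (SE 0.87), and it did not pass the test (edgeR adjusted p = 0.791, range 0.310 to 1.0 over the alternatives). Separation with lower values was found for 17.2% of all genes tested. Set against the median of all genes, Dnmt3b was at -1.30, and at -1.20 with a correction for transcript length, which moved that median from 0.11 to 0.44. The log2 fold change was -0.999 without deleted-labelled 1, -1.34 with sex as a covariate and -0.76 with the correction for transcript length. Without the 2 libraries that went against their labels, each left out in turn, it was -1.33 (control 2) and -1.14 (deleted-labelled 2). On mm10, Dnmt3b (ENSMUSG00000027478) lies on chromosome 2 from 153649450 to 153687730, plus strand, and its longest transcript has 24 exons and 4320 bases. Counts cover its exons. A neighbouring paralog, Dnmt3c, was not analysed here.

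Dnmt3a, the other de novo enzyme, had 114, 169 and 107 CPM in the controls and 338, 145 and 130 CPM in deleted-labelled 1, 2 and 3. Deleted-labelled 1 stood above all others, while the other 2 lay within the range of the controls. Control samples averaged 140 ± 41.4 CPM (SD, n = 2) and deleted-labelled libraries 204 ± 116 CPM (SD, n = 3), with a log2 fold change of 0.57 (SE 0.63, edgeR adjusted p = 0.898). Its direction rested on 1 library, for the value was -0.26 without deleted-labelled 1. It was also -0.12 with sex as a covariate. Dnmt3a (ENSMUSG00000020661) lies on mm10 chromosome 12 from 3806007 to 3914443, plus strand, and its longest transcript has 23 exons. The antisense gene Dnmt3aos shares 133 exonic bases with it and had at most 1 count in any library.

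The balance of the 2 de novo enzymes varied widely. Dnmt3a made up 65.4%, 79.7% and 64.9% of their summed level per length in controls 1, 2 and 3, and 96.2%, 86.6% and 77.6% in deleted-labelled 1, 2 and 3. The groups overlapped, because control 2 was above deleted-labelled 3. Such a share does not depend on how libraries are scaled to each other. As a ratio per length, Dnmt3a stood at 1.87 times Dnmt3b in controls 1 and 3 summed, 3.93 in control 2, and 25.1, 6.47 and 3.46 in deleted-labelled 1, 2 and 3. Dnmt3l, a catalytically inactive partner of these enzymes in germ cells, had at most 2 counts in any library.

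**Figure D3:**
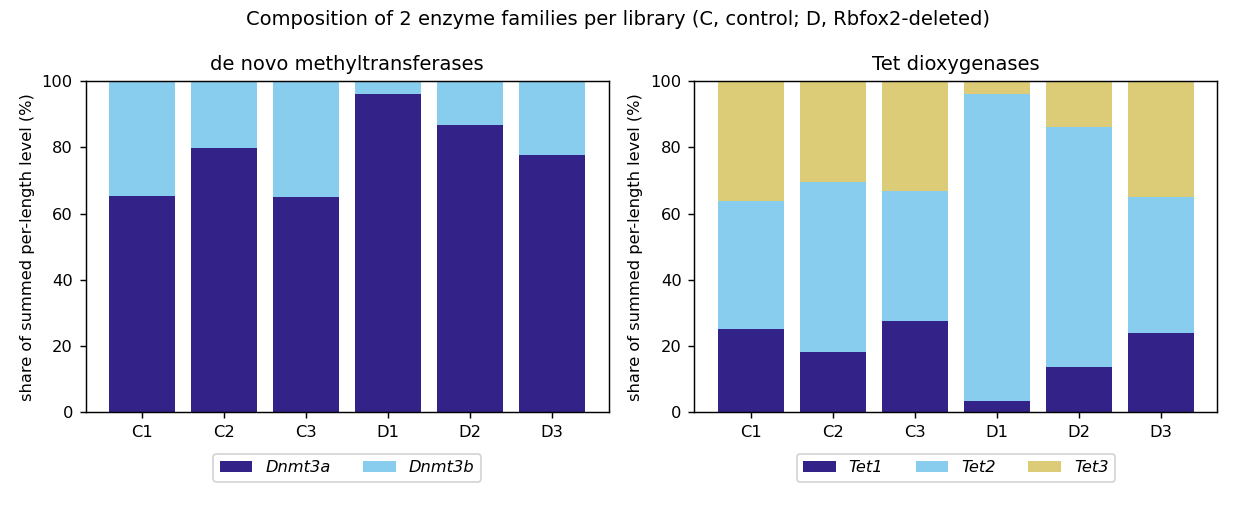
Share of each gene in the summed level per length of its family, as stacked bars for each control (C) and deleted-labelled (D) library. Dnmt3a takes 64.9% to 96.2% of the de novo pair, and Tet2 takes 92.9% of the Tets in D1 and 38.6% to 72.5% elsewhere.

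Dnmt1, the maintenance enzyme, had 32.4, 30.9 and 29.3 CPM in the controls and 54.7, 21.7 and 39.7 CPM in deleted-labelled 1, 2 and 3. The controls lay close together, with deleted-labelled 1 and 3 above them and deleted-labelled 2 below. The difference between the groups was 0.32 on the log2 scale (SE 0.71, edgeR adjusted p = 0.961), and it was -0.25 without deleted-labelled 1, -0.67 with sex as a covariate and -0.09 with upper quartile scaling. Dnmt1 (ENSMUSG00000004099) lies on mm10 chromosome 9 from 20907209 to 20959888, minus strand, with 39 exons in its longest transcript.

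Uhrf1, which reads hemimethylated CpG and recruits DNMT1, had 11.0, 14.7 and 12.1 CPM in the controls and 36.2, 11.8 and 5.52 CPM in deleted-labelled 1, 2 and 3. Deleted-labelled 1 was the highest library and deleted-labelled 3 the lowest. On the log2 scale the groups differed by 0.52 (SE 1.16, edgeR adjusted p = 0.961), which turned to -0.81 without deleted-labelled 1. Uhrf1 (ENSMUSG00000001228) lies on mm10 chromosome 17 from 56303321 to 56323486, plus strand, with 17 exons in its longest transcript. Dnmt1 and Uhrf1 did not keep a fixed proportion. Per length, Dnmt1 was 1.62 and 1.29 times Uhrf1 in the control samples and 0.922, 1.12 and 4.399 times in deleted-labelled 1, 2 and 3. Uhrf2, the paralog of Uhrf1, had 15.7, 14.3 and 15.5 CPM in the controls and 24.8, 52.1 and 16.2 CPM in deleted-labelled 1, 2 and 3, so its highest library was another one.

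The maintenance pair is known to be expressed with DNA replication, so its levels are given beside cell cycle markers. Deleted-labelled 1, the library with the highest Dnmt1 and Uhrf1, had the lowest S phase sum. In deleted-labelled 1, the replication genes Rrm2, Gins2 and Cdc45 had 0 counts, and Mki67, a marker of cycling cells, had 1 count. Of all genes between 5 and 20 CPM in both control samples, 34.1% were under 0.5 CPM in that library. Over 19 S phase genes the summed level was 1473 and 1331 CPM in the control samples and 1075, 2167 and 1848 CPM in deleted-labelled 1, 2 and 3. Over 12 mitosis genes it was 452 and 490 CPM, and 315, 652 and 218 CPM. Mki67 had 350, 462 and 430 counts in controls 1, 2 and 3, against 1, 42 and 2 in deleted-labelled 1, 2 and 3 (log2 -4.41, SE 1.88, edgeR adjusted p = 0.529). The mitosis list went both ways in deleted-labelled 1. Aurka and Aurkb were at 31.4 and 43.3 CPM there, above every control, and Ccnb1 and Plk1 had 0 counts. Groups were separated for 7 higher and 1 lower of the 19 S phase genes, and 0 and 1 of the 12 mitosis genes. Of all genes tested, 14.9% and 17.2% were. Not every S phase gene was low in deleted-labelled 1, since Chaf1a, a subunit of the chromatin assembly factor, was at 55.0 CPM there and between 2.16 and 15.8 CPM elsewhere, and Mcm4, of the replicative helicase, was at 94.5 CPM and between 14.3 and 30.1 CPM elsewhere. Rrm2, Gins2, Cdc45, Chaf1a, Mcm4, Aurka, Aurkb, Ccnb1 and Plk1 were picked after their values were seen. Deleted-labelled 1 was above each other sample for 3 of 8 members (Dnmt3a, Dnmt1 and Uhrf1), against 28.6% of all genes tested.

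Tet2, the dioxygenase most tied to stem cell expansion, had 12.2, 15.2 and 12.02 CPM in the controls and 6.13, 18.5 and 23.4 CPM in deleted-labelled 1, 2 and 3. Deleted-labelled 1 was below the controls and the other 2 were above. Tet2 gave a log2 fold change of 0.07 (SE 0.94, edgeR adjusted p = 0.995), which took either sign among the alternatives, from -0.23 to 0.59. Tet2 (ENSMUSG00000040943) lies on mm10 chromosome 3 from 133463679 to 133545139, minus strand, with 11 exons in its longest transcript.

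Tet1 and Tet3 had like profiles across libraries. Tet1 had 12.5, 8.50 and 13.3 CPM in the controls and 0.341, 5.47 and 21.4 CPM in deleted-labelled 1, 2 and 3. Tet3 had 13.6, 10.7 and 12.1 CPM in the controls and 0.298, 4.18 and 23.6 CPM in the deleted-labelled libraries. For both genes the 3 deleted-labelled libraries lay 1 far below, 1 below and 1 above the controls, and the highest was 62.9 times the lowest for Tet1 and 79.2 times for Tet3. In deleted-labelled 1 these values stand for 8 and 7 counts. The 2 profiles were the closest of all pairs of members, at a Euclidean distance of 0.46 on centred log2(CPM + 1) over the 5 samples, where the next pair, Dnmt3a and Dnmt1, stood at 0.93. Deleted-labelled 1 was more than 4-fold below each other sample for these 2 of the 8 members, against 26.1% of all genes tested.

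Neither gene passed the test between the groups. Their log2 fold changes were -0.46 (SE 1.53, edgeR adjusted p = 0.974) for Tet1 and -0.57 (SE 1.58, edgeR adjusted p = 0.970) for Tet3. Without deleted-labelled 1 these were 0.07 and -0.03, and without deleted-labelled 3 they were -2.01 and -2.52. Both have long transcripts, of 14369 and 10904 bases. The longest transcripts of Dnmt3a (9685 bases) and Tet2 (9179 bases) are also over 8000 bases. In deleted-labelled 1, Dnmt3a had its highest level (338 CPM) and Tet2 its lowest (6.13 CPM). Of 141 genes over 8000 bases in the band of 5 to 20 CPM in control, 35.5%, 7.09% and 6.38% were under 0.5 CPM in deleted-labelled 1, 2 and 3, against 34.1%, 4.23% and 2.72% of all genes of the band. Their median in deleted-labelled 1 was 2.90 CPM, against 4.64 CPM for the whole band. With a correction for transcript length the log2 fold changes were -0.097 for Tet1 and -0.25 for Tet3, while the median of all genes moved from 0.11 to 0.44. Set against that median, Tet1 stood at -0.54 with the correction and -0.58 without it, and Tet3 at -0.69 and -0.68. The part of length in the low values was not tested beyond this. Tet1 (ENSMUSG00000047146) lies on mm10 chromosome 10 from 62804570 to 62908996 and Tet3 (ENSMUSG00000034832) on chromosome 6 from 83362373 to 83459084, both on the minus strand.

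The make-up of the Tet family followed from this. Tet2 made up 38.6%, 51.3% and 39.1% of the summed Tet level per length in controls 1, 2 and 3, and 92.9%, 72.5% and 41.1% in deleted-labelled 1, 2 and 3. The groups overlapped, since deleted-labelled 3 was below control 2. The summed Tet level per length was 5.04 and 4.71 in the control samples and 1.20, 4.58 and 10.5 in the deleted-labelled libraries. Set against it, the summed level of Dnmt3a and Dnmt3b was 5.16 and 6.77 times as high in the control samples, and 50.4, 6.21 and 2.79 times as high in deleted-labelled 1, 2 and 3.

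Tdg, the glycosylase that removes oxidised methylcytosine, had 5.49, 3.78 and 5.17 CPM in the controls and 1.79, 2.61 and 7.80 CPM in deleted-labelled 1, 2 and 3. Deleted-labelled 1 and 2 were below the controls and deleted-labelled 3 above. Its log2 fold change of -0.32 (SE 1.31, edgeR adjusted p = 0.979) was -0.05 without deleted-labelled 1. Its count is uncertain for 2 reasons. The processed pseudogene Tdg-ps had 177, 263 and 165 counts in controls 1, 2 and 3 and 23, 85 and 438 in deleted-labelled 1, 2 and 3, where Tdg had 263, 195, 285, 42, 93 and 260. The gene Glt8d2, on the opposite strand, shares 367 exonic bases with Tdg, or 6.83% of its exonic length, and had 68, 1, 58, 0, 0 and 174 counts. Both had their highest CPM in deleted-labelled 3, as Tdg did. Tdg (ENSMUSG00000034674) lies on mm10 chromosome 10 from 82629828 to 82650799, plus strand.

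**Figure D4:**
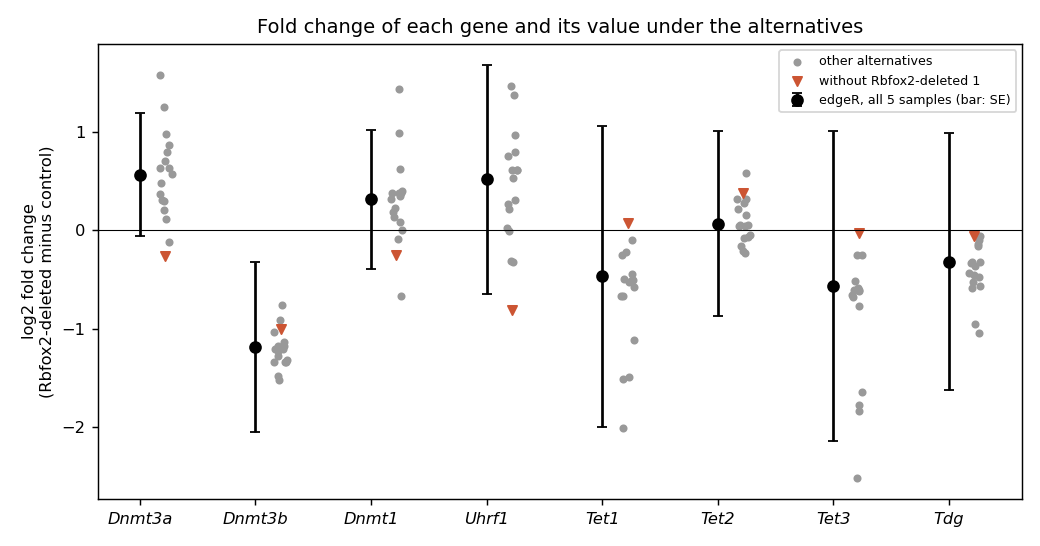
Log2 fold change (deleted-labelled minus control) of each gene with its standard error (black), and its values under the alternatives (grey), with that without deleted-labelled 1 in red. Dnmt3b stays between -1.52 and -0.76, while Dnmt3a, Dnmt1, Uhrf1 and Tet1 change sign without deleted-labelled 1.

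The genes around the 8 enzymes were taken by role, and in none of the lists did a gene pass edgeR's test over all genes. Of 17 partners of maintenance and de novo methylation, 15 were tested, with 8 above and 7 below control and a median log2 fold change of 0.02, against 0.11 over all genes. At an unadjusted edgeR p under 0.05 there were 4 higher and 0 lower members of 15, where 5.33% and 4.56% of all genes were. Groups were separated for 8 of these, 6 higher and 2 lower, where 14.9% and 17.2% of all genes were. Cdca7, the partner of the remodeller HELLS, had 20.9, 29.7 and 21.2 CPM in the controls and 112, 61.0 and 83.9 CPM in deleted-labelled 1, 2 and 3 (log2 1.73, SE 0.59, edgeR adjusted p = 0.434). Usp7, the deubiquitinase that stabilises DNMT1 and UHRF1, had 19.6, 19.3 and 18.9 CPM in the controls and 5.45, 2.10 and 1.11 CPM in the deleted-labelled libraries (log2 -2.67, SE 1.21, edgeR adjusted p = 0.554). For both genes every deleted-labelled library lay on 1 side of every control.

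Readers of methylated CpG had 8 of 10 members below control, with a median of -0.54, where 46.5% of all genes lay below, with a median of 0.11. None passed, and groups were separated for 2 of the 10, both lower, where 17.2% of all genes were. Mbd5 had 31, 331 and 44 counts in controls 1, 2 and 3, against 0, 0 and 4 in deleted-labelled 1, 2 and 3 (log2 -6.60, SE 2.39, edgeR adjusted p = 0.458), a low-count gene read mostly in control 2. Its log2 fold change was -4.20 without control 2 and -10.66 without deleted-labelled 3.

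The repair genes that act with or after TDG had 8 of 14 tested members above and 6 below control (median 0.30). Of all genes, 53.5% lay above. Ung, the uracil glycosylase, had 10.5, 7.57 and 9.57 CPM in the controls and 19.4, 69.9 and 22.9 CPM in the deleted-labelled libraries (log2 1.99, SE 0.91, edgeR adjusted p = 0.559). Lig1, the replicative DNA ligase, had 69.8, 87.2 and 72.6 CPM in the controls and 49.03, 42.8 and 26.2 CPM in the deleted-labelled libraries (log2 -1.03, SE 0.56, edgeR adjusted p = 0.653). Groups were separated for these and 2 more of the 14, 2 higher and 2 lower in all, near the 14.9% and 17.2% of all genes. Ung stood at 1.22 on the log2 scale without deleted-labelled 2, and Lig1 at -0.44 with a correction for GC content. The median of all genes was 0.47 in that last fit. Set against the median, Lig1 was at -0.91 with the correction and -1.15 without it.

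Suppliers of S-adenosylmethionine, the methyl donor, had 9 of 15 members above and 6 below control (median 0.39), where 53.5% of all genes lay above. Mat2b, the regulatory subunit of methionine adenosyltransferase, had 73.0, 62.2 and 74.0 CPM in the controls and 64.7, 202 and 240 CPM in the deleted-labelled libraries (log2 1.16, SE 0.50, edgeR adjusted p = 0.529). Ahcyl2, a relative of the enzyme that clears S-adenosylhomocysteine, had 143, 124 and 153 counts in controls 1, 2 and 3, against 0, 40 and 1 in deleted-labelled 1, 2 and 3 (log2 -2.91, SE 2.20, edgeR adjusted p = 0.799). Without deleted-labelled 2 it stood at -7.30, and with sex as a covariate at -1.38. Neither gene passed.

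Cofactors and partners of the TET enzymes had 8 of 12 tested members above and 4 below control (median 0.38), where 53.5% of all genes lay above. TET enzymes need alpha-ketoglutarate, which isocitrate dehydrogenases make. Idh3a, the catalytic subunit of the mitochondrial NAD-dependent form, had 34.6, 18.9 and 35.3 CPM in the controls and 68.9, 107 and 131 CPM in deleted-labelled 1, 2 and 3. All 3 deleted-labelled libraries were above all controls, with a log2 fold change of 1.83 (SE 0.49). DESeq2 called it (adjusted p = 0.0412), as it did 1.47% of all genes tested, and edgeR did not (adjusted p = 0.387). Idh3g, another subunit of the same enzyme, had 662, 488 and 663 CPM in the controls and 377, 490 and 496 CPM in the deleted-labelled libraries (log2 -0.42, SE 0.23, edgeR adjusted p = 0.657). Idh3a and Idh3g were named as the smallest p in each direction, and the remaining subunit, Idh3b, had a log2 fold change of 0.17 (SE 0.26, edgeR adjusted p = 0.939) with overlapping groups. With a correction for GC content Idh3g stood at -0.026, in a fit where the median of all genes was 0.47. Set against that median, Idh3g was at -0.49 with the correction and -0.53 without it. Idh2, the mitochondrial NADP-dependent enzyme, was also separated, at a log2 fold change of 0.82 (SE 0.29, edgeR adjusted p = 0.456). On CPM scaled by TMM factors, groups were separated for 2 higher and 2 lower of the 12, with Idh3g among the lower. Of all genes tested, 14.9% and 17.2% were separated in these directions. Idh3b and Idh2 were added after their values were seen.

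**Figure D5:**
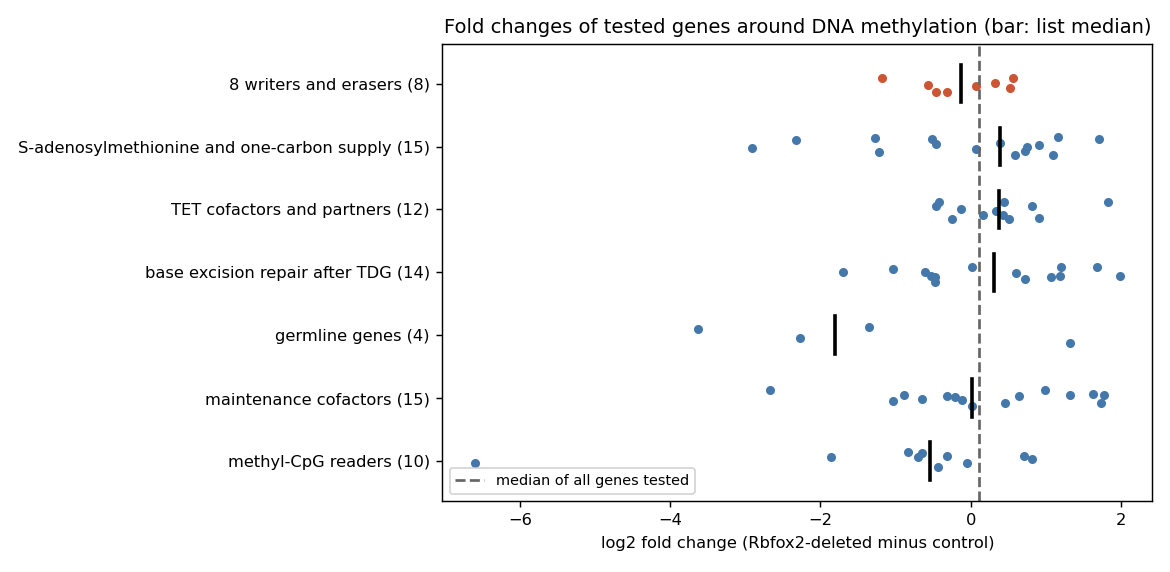
Log2 fold changes (deleted-labelled minus control) of the 8 genes (red) and of the tested genes of 6 lists (blue), with each list's median as a black bar and the median of all genes tested, 0.11, as a dashed line. The 8 genes lie between -1.19 and 0.57.

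The summed level of markers of other cells was highest or lowest in deleted-labelled 1 for each list except B cells. Their part in the values of that library was not tested. The 7 erythroid markers found in the table summed to 121 and 169 CPM in the control samples and 484, 129 and 224 CPM in deleted-labelled 1, 2 and 3. The 6 megakaryocyte markers summed to 303 and 295 CPM in the control samples and 44.1, 164 and 277 CPM in the deleted-labelled libraries, with Pf4, Gp1bb and Ppbp at 0 in deleted-labelled 1. The 8 T and NK cell markers summed to 87.9 and 110 CPM, and to 168, 113 and 126 CPM. Of these, Klrb1c, an NK cell receptor, was at 100.3 CPM in deleted-labelled 1 and between 3.84 and 25.9 CPM elsewhere, while Cd3e and Cd3d had at most 2 counts in any library. The 8 B cell markers, nearly all of it Cd79b, summed to 325 and 214 CPM, and to 178, 140 and 195 CPM, with Pax5 at no more than 1 count in any library. The 10 granulocyte and monocyte markers, mostly Lyz2, summed to 2901 and 1961 CPM, and to 1695, 1929 and 1911 CPM, with Ctsg at no more than 2 counts in any library. The 7 stromal and endothelial markers, mostly Pecam1, summed to 8.71 and 9.66 CPM, and to 32.8, 16.6 and 20.03 CPM.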

How the data were processed

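The authors deposited counts of reads per gene, without normalization and keyed by Ensembl identifier. Per the submitters' processing notes, Trimmomatic 0.39, featureCounts and DESeq2 1.36.0 were used with build mm10. The sources used here do not say how reads were aligned, whether strand was used or how multi-mapping reads were handled. Rows sharing an identifier (134 rows, 60 identifiers, none a member) were summed, and symbols were found for 22831 of 22969 identifiers. Positions and longest transcripts came from GENCODE M21 on mm10, and promoters from RefSeq.

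Controls 1 and 3 were summed as 1 sample. The test was edgeR's quasi-likelihood test (version 4.0.16, R 4.3.3, TMM factors, two-sided, a model of group alone) on genes kept by filterByExpr (min.count 10, min.total.count 15), with Benjamini-Hochberg adjustment over 12350 genes and a threshold of 0.05. DESeq2 1.42.0, limma-voom 3.58.1 and 14 other settings were alternatives, and 1 more, DESeq2 without the filter, was added after seeing the data. The scripts were tested on simulated counts. CPM are counts over the library total. Separation of the groups was judged on CPM scaled by TMM factors. SE is the fold change over the square root of F. P values measure only the spread between these 5 samples.

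The members and lists were chosen with earlier results of these data known. Named genes are the 8 members, the gene with the smallest p in each direction of each list around them, and, for Dnmt1, Dnmt3a and Tet2, the 3 tested genes nearest in centred log2(CPM + 1). Of the genes this rule names, 1 is not reported. The bands of control level and transcript length were set after seeing the data.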

Additional observations from a re-analysis of the deposited data

How the results depend on the processing

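No member passed the adjusted threshold under any of the alternatives. The fold changes of Dnmt3b, Tet3 and Tdg kept their sign under each alternative that could be computed. The fit with sex as a covariate compares only deleted-labelled 2 with the controls. In it, the log2 fold change turned to -0.12 for Dnmt3a, -0.67 for Dnmt1 and -0.32 for Uhrf1. With upper quartile factors it turned to -0.092 for Dnmt1 and -0.21 for Tet2, while the median of all genes moved from 0.11 to -0.20. With limma-voom, where that median was -0.32, it turned to -0.31 for Uhrf1. Tet2 turned to -0.067 with no filter and -0.047 with the stricter filter, under which Tet1 and Tet3 were not tested. Over the fits that leave out 1 sample, the range was -0.26 to 0.98 for Dnmt3a, -1.52 to -0.999 for Dnmt3b, -0.25 to 0.62 for Dnmt1, -0.81 to 0.97 for Uhrf1, -2.01 to 0.074 for Tet1, -0.23 to 0.38 for Tet2, -2.52 to -0.03 for Tet3 and -1.05 to -0.05 for Tdg. Those without a control sample leave 1 control, assumed to vary like the others. With the length correction, the median of all genes was 0.44, Dnmt3a stood at 1.58, Dnmt1 at 1.43, Uhrf1 at 1.465 and Usp7 at -1.48. With the GC correction, where that median was 0.47, the same 4 stood at 1.26, 0.99, 1.38 and -1.77. The cause of these changes was not tested.

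Over all genes, edgeR and limma-voom called 0 under each setting (1221 genes by edgeR and 1686 by limma-voom at an unadjusted p under 0.05), and DESeq2 called 181, or 478 without the filter on low counts. Of the other named genes, DESeq2 called Idh3a with and without the filter, and Mbd5 without it (adjusted p = 0.0338).

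Deviations of same-numbered libraries correlated at -0.041, -0.009 and 0.046. Whether replicate numbers paired the samples could not be decided from these values. The controls that were summed differed little from each other, so each gave nearly the same correlation with any given deleted-labelled library. With the replicate block on 6 separate libraries, 0 genes were called, and the log2 fold change was -1.28 for Dnmt3b and -0.0084 for Uhrf1.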

Other observations

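Germline genes that promoter methylation keeps silent in somatic cells were also read, though methylation itself was not measured. Most were close to absent, but Brdt reached 4.50 CPM and Dazl 2.68 CPM in control 3, and Ddx4 3.54 CPM in deleted-labelled 3. Of 12 such genes, 4 reached the counts needed for testing, 1 above and 3 below control (median log2 fold change -1.81). Of all genes tested, 46.5% lay below. None of the 4 passed edgeR's test. The summed level of the 12 was 10.1 and 3.14 CPM in the control samples and 0.426, 4.32 and 6.18 CPM in deleted-labelled 1, 2 and 3. Deleted-labelled 2 and 3 thus lay between the 2 control samples and deleted-labelled 1 below both. Sycp3, of the meiotic chromosome axis, had 100, 20 and 92 counts in controls 1, 2 and 3, against 0, 2 and 8 in deleted-labelled 1, 2 and 3 (log2 -3.63, SE 1.83, edgeR adjusted p = 0.612). Ddx4, a germ cell RNA helicase, had 19, 54 and 17 counts in controls 1, 2 and 3, against 2, 90 and 118 in deleted-labelled 1, 2 and 3 (log2 1.31, SE 1.87, edgeR adjusted p = 0.928). Sycp3 stood at -2.21 without controls 1 and 3, and Ddx4 at 2.41 without control 2. Each was named as the smallest p in its direction.

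By Euclidean distance of centred log2(CPM + 1) over the 5 samples, the genes nearest to Dnmt1 were Inip (distance 0.15), the Src family kinase Lyn (0.15) and 1810022K09Rik (0.17). Those nearest to Dnmt3a were the transcription factor Klf10 (0.15), Znhit6 (0.19) and the N-terminal methyltransferase Ntmt1 (0.20). Those nearest to Tet2 were Fam161b (0.22), the asparaginyl-tRNA synthetase Nars (0.23) and the GTPase Rheb (0.23). None of these genes belongs to the lists around DNA methylation. Ntmt1 had 194, 249 and 190 CPM in the controls and 565, 240 and 227 CPM in deleted-labelled 1, 2 and 3. It shared its highest library with Dnmt3a, which its choice by nearness to that profile makes likely. Deleted-labelled 1 was highest for 28.6% of all genes tested.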
